A study of Mus musculus with 4 samples.

Results

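Biliary and progenitor genes were followed in the livers of ethanol-fed mice with and without Brg1 in hepatocytes. The group holds 9 genes, *Krt7*, *Krt19*, *Krt8*, *Krt18*, *Epcam*, *Sox9*, *Cd24a*, *Prom1* and *Wfdc2*, out of 22103 genes in the table of expression values, and all 9 were found under their symbols. The first 8 were taken for what they mark, that is bile duct cells, the ductular reaction and the keratins of simple epithelia. *Wfdc2* was picked by its measured fall in the Brg1 LKO livers of this same comparison, so its values are given as a description, without a test.

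RNA was sequenced from whole liver of 2 WT mice and 2 Brg1 LKO mice, which the sample labels call KO. In the Brg1 LKO mice *Smarca4*, the gene of Brg1, carries floxed alleles and is deleted by *Alb*-Cre, a recombinase driven by the albumin promoter, and the WT mice were littermates. By the study's methods the mice were 8-week-old males. All of them, the WT mice included, had gone through NIAAA feeding, a chronic ethanol liquid diet closed by a single ethanol gavage, and the labels give 15 days of alcohol. No liver of a mouse without alcohol was analysed here. Albumin is made by hepatocytes and, before birth, by the precursors that give rise both to hepatocytes and to bile duct cells. *Smarca4* was at 1.78 and 1.95 FPKM in WT liver against 0.608 and 0.579 FPKM in Brg1 LKO liver, which left 31.8% of the WT mean in whole tissue. Throughout, the first value of each group is replicate 1 and the second is replicate 2. FPKM is the number of sequenced fragments per kilobase of transcript, scaled to the size of the library, so that levels can be set side by side between genes. The libraries held between 72589370 and 80908377 reads, as recovered from the smallest steps in the FPKM values.

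Bile ducts are lined by cholangiocytes, epithelial cells that carry the keratins of simple epithelia together with a pair of keratins, K7 and K19, that hepatocytes lack. After injury the ducts can expand into the surrounding tissue, a change known as the ductular reaction, and cells at its edge carry markers shared by cholangiocytes and liver progenitor cells. Sox9 and Notch signals set the biliary fate, and the Hippo-YAP pathway restrains or releases it. Keratins form filaments only as pairs of a type I chain (K18, K19) with a type II chain (K7, K8), and K8 with K18 is the pair that hepatocytes make. In alcoholic liver disease K8 and K18 gather in hepatocytes into aggregates called Mallory-Denk bodies.

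Promoter sequence is shown for *Wfdc2*, the gene with the largest difference among the 9, and for *Krt8* and *Krt18*, whose products pair in hepatocytes and which were the most abundant. RefSeq windows of GRCm38.p6 were found for 6 of the 9 genes. The 250 bases before the annotated start are given 5′ to 3′ on the strand of the gene. In each of the 3 genes that start lies within the transcript listed in the expression table, so the window covers the start of that transcript too. *Wfdc2* had 2 such windows, a single base apart, and the upstream one is shown. Capitals mark a match on either strand to any of 6 motifs, namely TATAAA of the TATA box, GGGCGG of the GC box, CCAAT of the box of that name, GGAATG read by TEAD factors, TGGGAA read by the Notch factor RBPJ, and ACAAT read by SOX factors. *Wfdc2* lies at chr2:164562465-164562714 on the plus strand, *Krt8* at chr15:102004343-102004592 on the minus strand and *Krt18* at chr15:102027966-102028215 on the plus strand.
Wfdc2: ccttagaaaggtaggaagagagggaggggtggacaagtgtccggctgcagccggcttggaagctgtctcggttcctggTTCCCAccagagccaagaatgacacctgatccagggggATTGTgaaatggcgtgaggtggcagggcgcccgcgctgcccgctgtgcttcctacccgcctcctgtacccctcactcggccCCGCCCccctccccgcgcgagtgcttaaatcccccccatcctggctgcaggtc
Krt8: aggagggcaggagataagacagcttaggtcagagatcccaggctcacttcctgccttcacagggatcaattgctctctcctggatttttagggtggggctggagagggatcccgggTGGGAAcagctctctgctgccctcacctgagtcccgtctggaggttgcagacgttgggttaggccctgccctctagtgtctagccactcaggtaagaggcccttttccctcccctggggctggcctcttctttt
Krt18: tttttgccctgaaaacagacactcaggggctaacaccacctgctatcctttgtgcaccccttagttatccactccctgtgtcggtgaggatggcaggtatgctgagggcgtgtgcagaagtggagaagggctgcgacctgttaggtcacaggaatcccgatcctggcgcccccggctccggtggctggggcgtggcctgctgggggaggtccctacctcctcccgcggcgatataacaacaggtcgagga

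The *Wfdc2* window held an RBPJ match from base -172 to base -167, a SOX match from -134 to -130 and a GC box match from -53 to -48, counted back from the start. The *Krt8* window held a single RBPJ match, from -134 to -129, and the *Krt18* window held no match to these letters. The SOX and GC box matches of *Wfdc2* and the RBPJ match of *Krt8* lie inside the span of the listed transcript, past its start. Only the RBPJ match of *Wfdc2* lies before the start of the listed transcript. Such matches are common. Of 32851 windows of this length in the mouse genome, 21.6% held the RBPJ letters, 27.7% the SOX letters and 32.7% the GC box, while 12.4% held the TATA letters, 33.8% the CCAAT letters and 12.6% the TEAD letters. None of the letters overlapped in these windows, and no binding was measured here. All 3 windows were rich in G and C, at 64.8% in *Wfdc2*, 58.0% in *Krt8* and 60.4% in *Krt18*, against a median of 52.4% over all windows.

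Among the 9 genes the hepatocyte keratins stood apart from the rest by level. *Krt8* and *Krt18* averaged 42.8 and 41.6 FPKM over the 4 livers, above 94.9% and 94.7% of the 12346 genes tested. *Wfdc2* followed at 2.04 FPKM and *Sox9* at 0.714 FPKM. The genes more particular to bile ducts and progenitors came last, in the order *Krt19* (0.267 FPKM), *Prom1* (0.177 FPKM), *Cd24a* (0.137 FPKM), *Epcam* (0.105 FPKM) and *Krt7* (0.0442 FPKM). Only *Krt18* and *Wfdc2*, as neighbours in this order, had ranges over the 4 livers that did not overlap. Every other neighbouring pair overlapped, so the order of neighbours within the low genes was not set by these livers. Some genes further apart had ranges that did not overlap. The lowest *Krt19* value, 0.201 FPKM, was above the highest of *Cd24a* (0.152 FPKM), *Epcam* (0.157 FPKM) and *Krt7* (0.0825 FPKM). These ranges leave out counting error, and that *Krt19* value rested on an estimated 23 reads. *Krt8* and *Krt18* together exceeded *Krt7* and *Krt19* together by 163-fold to 454-fold in single livers.

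**Figure D1:**
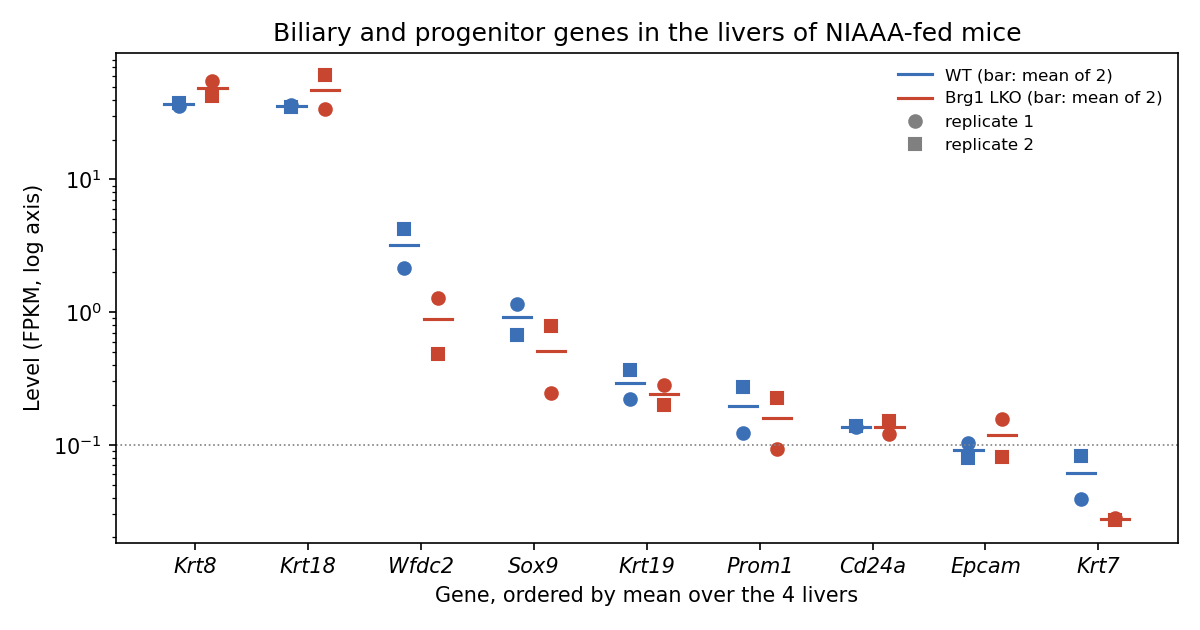
Level of each gene in FPKM on a log axis, by genotype, with circles for replicate 1, squares for replicate 2 and a bar at the mean of the 2 livers of a group; the dotted line is the filter at 0.1 FPKM. *Krt8* and *Krt18* sit at 33.7 FPKM or above in every liver, and *Wfdc2* is the gene above the filter whose Brg1 LKO livers are both below its WT livers.

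The low levels set how precisely these genes were measured. From the FPKM values and the transcript lengths, *Krt7* rested on an estimated 8 to 27 reads per liver, *Epcam* on 12 to 25, *Cd24a* on 17 to 20, *Krt19* on 23 to 46 and *Prom1* on 29 to 86. *Krt8* rested on 5708 to 8421 reads. At 8 reads the exact Poisson 95% interval runs from 3.45 to 15.8 reads, and at 27 reads from 17.8 to 39.3. Such intervals cover counting error only and take reads as independent. In whole liver, fewer cells of a type and less RNA per cell cannot be told apart.

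The label of a bile duct signal was checked against 11 cholangiocyte markers. Of these, 9 had reads in each WT liver and 8 in each Brg1 LKO liver. Their levels summed to 5.13 and 5.86 FPKM in WT liver against 4.31 and 4.51 FPKM in Brg1 LKO liver, and between 50.4% and 59.1% of it was *Spp1* (osteopontin). *Cftr* and *Sctr* were each listed at 0 in all livers but 1. *Alb*, the albumin gene of hepatocytes, stood between 10710 and 12486 FPKM in the same livers.

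Genes were compared between genotypes by limma on log2(FPKM + 0.1), keeping genes that averaged 0.1 FPKM or more. The threshold was an unadjusted p under 0.05 together with a difference larger than 2-fold. Of the 8 genes of the group that passed the filter, *Wfdc2*, the gene picked for its fall, was past the threshold, which its choice had fixed, and 0 of the 7 others were. Over all genes tested 0.980% were past it, 0.543% with less and 0.437% with more RNA in Brg1 LKO liver, and 0 had a Benjamini-Hochberg adjusted p under 0.05, while 247 had an unadjusted p under 0.05. Groups that did not overlap were found for *Wfdc2*, which was lower, and for *Krt8*, which was higher. Over all genes tested 10.0% were lower and 10.7% were higher in this sense. The median log2 fold change of the 7 tested genes other than *Wfdc2* was −0.01, against −0.02 over all genes tested. Where a liver is left out below, the lone liver of its genotype is assumed to vary like the pair of the other genotype. Leaving out a liver also moved the median over all genes tested. It was −0.17 without WT replicate 1 or LKO replicate 2, and 0.12 without WT replicate 2 or LKO replicate 1. An exact two-sided permutation of 2 against 2 livers cannot give a p below 0.333, so every p here leans on the spread that limma shares between genes.

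**Figure D2:**
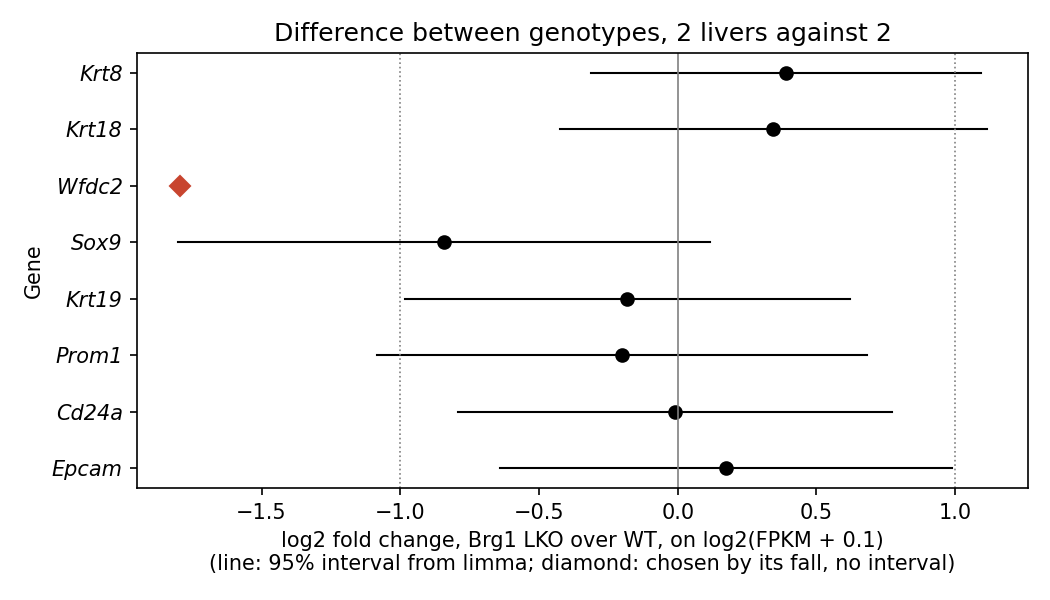
log2 fold change of Brg1 LKO over WT livers on the log2(FPKM + 0.1) scale for the 8 genes tested, ordered by level, with 95% intervals from limma; dotted lines mark a 2-fold change, and the diamond is *Wfdc2*, shown without an interval because it was chosen by this difference. The 7 intervals all cross 0, and that of *Sox9* reaches furthest down, to −1.80.

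*Wfdc2* encodes a small secreted protein with disulfide-bonded WAP domains, known as HE4, that many glandular and ductal epithelia release. The listed transcript, ENSMUST00000017867, spans bases 164562579 to 164568510 of chromosome 2 (GRCm38, plus strand, 5 exons) and overlaps no other annotated gene. Its level reached 2.14 and 4.25 FPKM in WT liver against 1.28 and 0.487 FPKM in Brg1 LKO liver. The groups did not overlap, although the WT livers lay further apart from each other than WT replicate 1 lay from LKO replicate 1. WT liver averaged 3.19 ± 1.49 FPKM and Brg1 LKO liver 0.884 ± 0.561 FPKM (SD, n = 2 each), which makes the Brg1 LKO level 27.7% of the WT level. In reads, this came to an estimated 147, 288, 85 and 30. On the log2 scale the difference was −1.79. It came to −1.18 without LKO replicate 2, −1.31 without WT replicate 2, −2.41 without LKO replicate 1 and −1.14 with a pseudocount of 1.

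The 3 tested genes whose centred log2 values lay nearest to those of *Wfdc2* over the 4 livers were *Bik*, *H1fx* and *Tnnc1*, at Euclidean distances of 0.434, 0.466 and 0.500. *Bik*, a cell death gene of the BCL2 family, was at 1.44 and 2.49 FPKM in WT liver against 1.11 and 0.380 FPKM in Brg1 LKO liver. These neighbours were ranked by likeness in 4 livers only, and are a description.

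The WT liver with the most *Wfdc2* was also the liver with the highest summed level of mesothelial markers. Mesothelial cells form the outer lining of the liver, and they too carry the simple-epithelium keratins. Of 8 mesothelial markers, *Muc16* was listed at 0 in every liver, and the other 7 were each highest in WT replicate 2. Only 2 of them, *Msln* and *Upk3b*, passed the filter. *Lrrn4*, *Bnc1* and *Wt1* rested on an estimated 16, 16 and 23 reads over the 4 livers. The share of all genes highest in WT replicate 2 was not counted. In lists described below, that liver was highest for 8 of 13 keratin partner genes and 9 of 26 other cholangiocyte genes above 0. It was highest for 4 of 15 ductular, 6 of 16 Notch, 5 of 18 Hippo-YAP and 2 of 7 WAP family genes above 0. Among cell markers above 0 it was highest for 2 of 10 hepatocyte, 1 of 6 acinar and 1 of 5 B cell genes. The count was 0 of 6 for erythroid and 0 of 9 for neutrophil markers. Summed over the list the level came to 0.222 and 1.49 FPKM in WT liver against 0.483 and 0.0692 FPKM in Brg1 LKO liver. *Msln* (mesothelin), the most abundant, was at 0.117 and 0.651 FPKM in WT liver against 0.224 and 0.0130 FPKM in Brg1 LKO liver. *Upk3b* followed the same order of livers, from 0.352 FPKM in WT replicate 2 down to 0.0117 FPKM in LKO replicate 2. Neither was past the threshold (log2 fold changes −1.08 and −0.68, adjusted p = 1.00 for both from limma). The groups overlapped for both genes, and with single livers left out *Msln* ranged from −1.97 to −0.18. It was then past the threshold without WT replicate 1 or LKO replicate 1, and not without either replicate 2. Between the replicate 1 livers the 2 signals ran opposite ways, since *Wfdc2* was lower and the mesothelial sum higher in LKO replicate 1 than in WT replicate 1. The part of mesothelial RNA in the *Wfdc2* difference was not tested.

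**Figure D3:**
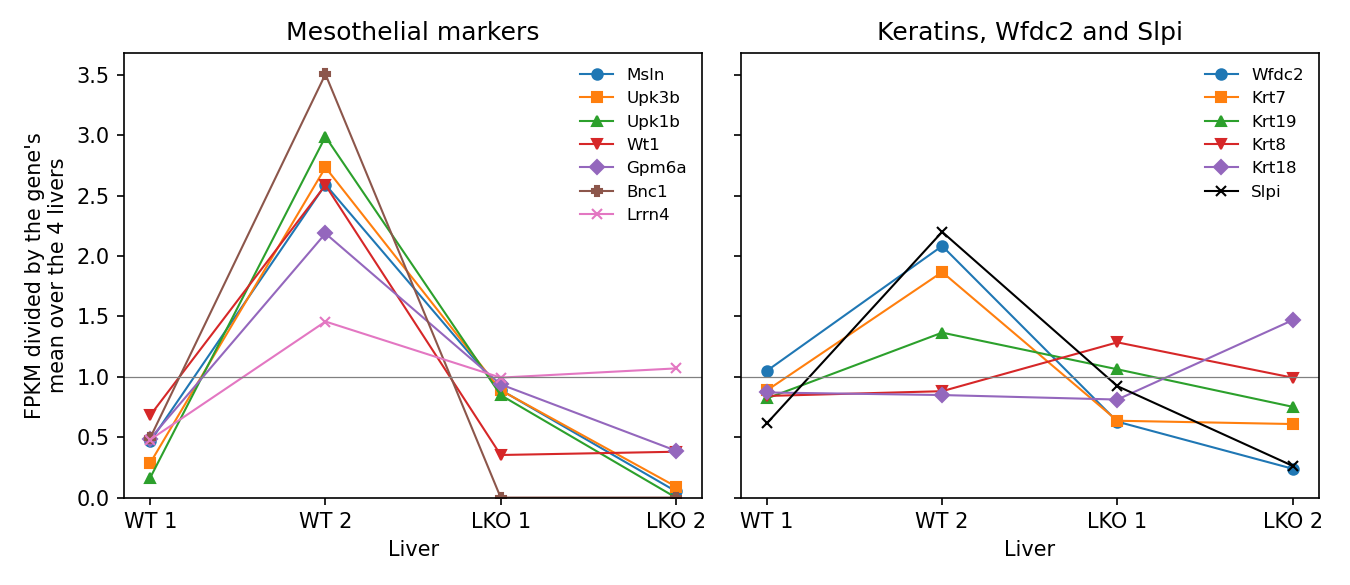
FPKM of each gene divided by its mean over the 4 livers, for 7 mesothelial markers at left and for *Wfdc2*, *Slpi* and the 4 keratins at right; the lines only join the values of a gene. WT replicate 2 is highest for all 7 markers, of which 2 passed the filter, and for *Wfdc2*, *Slpi*, *Krt7* and *Krt19*. It is not highest for *Krt8* or *Krt18*.

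The keratins of bile ducts were at low levels in both genotypes. *Krt19*, the type I keratin of cholangiocytes (ENSMUST00000007317, chromosome 11 of GRCm38, 100140810 to 100146120, minus strand, 6 exons), was at 0.220 and 0.365 FPKM in WT liver against 0.284 and 0.201 FPKM in Brg1 LKO liver. The groups overlapped, and the livers fell in the same order as for the mesothelial sum. Its log2 fold change was −0.18 (95% interval −0.98 to 0.62, adjusted p = 1.00 from limma), and it was 0.090 without WT replicate 2. The nearest genes to *Krt19* by the same distance were *Pi4k2b* (0.0284), *Tsc22d1* (0.0347) and *Sema3b* (0.0442), and they too are named for likeness alone. *Krt7*, its usual type II partner in ducts (ENSMUST00000068904, chromosome 15, 101412402 to 101430313, plus strand, 9 exons), was at 0.0392 and 0.0825 FPKM in WT liver against 0.0281 and 0.0269 FPKM in Brg1 LKO liver. Neither Brg1 LKO liver reached the lower WT liver, at an estimated 9 and 8 reads against 13 and 27. The counting intervals of WT replicate 1 and of either Brg1 LKO liver overlapped. Its mean was under the filter, so *Krt7* went untested. Without the filter its log2 fold change was −0.32 (adjusted p = 1.00 from limma).

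The hepatocyte keratins averaged higher in the Brg1 LKO livers, *Krt8* in both of them and *Krt18* in one, and neither passed the threshold. *Krt8*, the type II chain (ENSMUST00000023952, chromosome 15, 101996698 to 102004482, minus strand, 9 exons), was at 36.0 and 37.7 FPKM in WT liver against 55.0 and 42.5 FPKM in Brg1 LKO liver. Both Brg1 LKO livers were above both WT livers. The means were 36.9 ± 1.20 and 48.8 ± 8.85 FPKM (SD, n = 2 each), with a log2 fold change of 0.39 (95% interval −0.31 to 1.09, adjusted p = 1.00 from limma). *Krt18*, the type I chain (ENSMUST00000023803, chromosome 15, 102028180 to 102032027, plus strand, 7 exons), was at 36.2 and 35.3 FPKM in WT liver against 33.7 and 61.1 FPKM in Brg1 LKO liver. LKO replicate 2 was the highest of the 4 livers and LKO replicate 1 the lowest. Its log2 fold change was 0.34 (95% interval −0.43 to 1.11, adjusted p = 1.00 from limma), and leaving out LKO replicate 2 gave −0.082, leaving out LKO replicate 1 gave 0.77.

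The *Krt8* and *Krt18* genes lie side by side and point away from each other, with 23698 bases between their starts. In the WT livers the 2 chains were close to equal by level, with a ratio of *Krt8* to *Krt18* of 0.996 and 1.07. In the Brg1 LKO livers the ratio was 1.63 and 0.696, so one liver had an excess of *Krt8* and the other of *Krt18*. Both chains together came to 72.2 and 73.0 FPKM in WT liver against 88.8 and 104 FPKM in Brg1 LKO liver, 1.32 times the WT level on average. A noncoding gene, *Gm36026*, overlaps *Krt8* on the opposite strand, and the annotation holds a processed pseudogene, *Krt8-ps*, so a part of the *Krt8* reads is uncertain.

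*Sox9*, the transcription factor of biliary cells and of periportal progenitor-like hepatocytes (ENSMUST00000000579, chromosome 11, 112782224 to 112787760, plus strand, 3 exons), was at 1.16 and 0.675 FPKM in WT liver against 0.244 and 0.779 FPKM in Brg1 LKO liver. LKO replicate 1 was the lowest of the 4 and LKO replicate 2 lay between the WT livers, so the groups overlapped. The range over the livers, 4.73-fold, was the widest of the group after that of *Wfdc2* at 8.72-fold. The reads, an estimated 387, 223, 79 and 234, put LKO replicate 1 outside the counting interval of each other liver. The log2 fold change was −0.84 (95% interval −1.80 to 0.12, unadjusted p = 0.0807, adjusted p = 1.00 from limma). It was −0.17 without LKO replicate 1, and −1.52 and past the threshold without LKO replicate 2 (adjusted p = 0.0073 from limma, where the lone Brg1 LKO liver is assumed to vary like the WT livers and 140 genes had an adjusted p under 0.05).

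None of the 3 surface markers passed the threshold. *Epcam*, an adhesion molecule of cholangiocytes (ENSMUST00000053577, chromosome 17, 87635979 to 87651106, plus strand, 10 exons), was at 0.103 and 0.0798 FPKM in WT liver against 0.157 and 0.0810 FPKM in Brg1 LKO liver. *Cd24a*, a lipid-anchored glycoprotein of progenitor and blood cells (ENSMUST00000058714, chromosome 10, 43579169 to 43584265, plus strand, 2 exons), was at 0.136 and 0.138 FPKM in WT liver against 0.120 and 0.152 FPKM in Brg1 LKO liver. *Prom1*, the gene of the membrane protein CD133 (ENSMUST00000074113, chromosome 5, 43993620 to 44101954, minus strand, 28 exons), was at 0.122 and 0.271 FPKM in WT liver against 0.0923 and 0.224 FPKM in Brg1 LKO liver. The groups overlapped for all 3 genes, and *Cd24a* was the steadiest of the 9, with a 1.27-fold range over the 4 livers. Their log2 fold changes were 0.17 for *Epcam* (95% interval −0.64 to 0.99), −0.01 for *Cd24a* (−0.79 to 0.77) and −0.20 for *Prom1* (−1.08 to 0.68), each with an adjusted p = 1.00 from limma. The sign of each depended on the livers or on the scaling. *Epcam* was at −0.077 and *Prom1* at 0.18 without LKO replicate 1, and *Cd24a* was at 0.0041 after median-ratio rescaling. An antisense and a noncoding gene, *Gm16401* and *Gm42716*, overlap *Prom1*.

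Related genes were read from lists. Their medians with a liver left out are to be read beside those given above over all genes tested. Among 26 other cholangiocyte genes, 14 passed the filter and 0 were past the threshold in either direction, with a median log2 fold change of 0.02 that was 0.10 without WT replicate 2. *Onecut1*, a hepatocyte and biliary transcription factor, was at 0.927 and 0.756 FPKM in WT liver against 1.47 and 1.77 FPKM in Brg1 LKO liver. Both Brg1 LKO livers were above both WT livers, and its log2 fold change of 0.87 was the highest of the list (unadjusted p = 0.0237, adjusted p = 1.00 from limma), short of 2-fold. *Spp1* had the lowest, −0.27, at 2.58 and 3.46 FPKM against 2.50 and 2.43 FPKM. The most abundant of the list were *Atp1b1* (a sodium pump subunit), *Aqp1* (a water channel) and *Slc10a2* (a bile acid carrier), at log2 fold changes of 0.25, −0.03 and 0.61. The groups overlapped for all 3, and *Atp1b1* reached 21.5 FPKM in LKO replicate 1 against 6.41 to 10.6 FPKM elsewhere.

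Of 16 ductular reaction, progenitor and oncofetal genes, 15 were listed and 8 passed the filter, with a median of −0.13 that was 0.13 without LKO replicate 1. *Cd44*, a hyaluronan receptor of progenitor and immune cells, was higher and past the threshold, and 0 were lower and past it. It was at 0.737 and 0.582 FPKM in WT liver against 0.957 and 2.58 FPKM in Brg1 LKO liver (log2 fold change 1.15, unadjusted p = 0.0169, adjusted p = 1.00 from limma). The excess lay mostly in LKO replicate 2, and leaving that liver out brought the log2 fold change to 0.48. It was past the threshold without LKO replicate 1 (1.82) and not without either WT liver (1.30 and 1.01). *Lcn2*, a secreted lipocalin of injured liver, was the most abundant, at 842 and 116 FPKM in WT liver against 1175 and 337 FPKM in Brg1 LKO liver. In each genotype replicate 1 was the higher liver, and the difference of 1.01 was not past the threshold (adjusted p = 1.00 from limma). The cytokine TWEAK, *Tnfsf12*, and its receptor Fn14, *Tnfrsf12a*, which drive ductular expansion, had log2 fold changes of −0.19 and −0.25. *Gpc3* was the lowest of the list at −0.36.

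Of 16 Notch pathway genes 12 passed the filter and 0 were past the threshold. The log2 fold change was negative for 9 of the 12, against 6650 of the 12346 genes tested, and the median was −0.26. The groups did not overlap for 8 of the 12, with the Brg1 LKO livers lower for 6 and higher for 2, where 10.0% and 10.7% of all genes tested were lower and higher. Nothing particular to the list was tested. *Nrarp*, a target and feedback inhibitor of Notch, was the lowest at −0.85, with 0.225 and 0.189 FPKM in WT liver against 0.0941 and 0.0480 FPKM in Brg1 LKO liver (unadjusted p = 0.0378, adjusted p = 1.00 from limma). The groups did not overlap. With single livers left out it ranged from −1.05 to −0.66, past the threshold without LKO replicate 1 and not without any other liver. The ligands *Jag1*, *Dll1* and *Dll4* were at −0.32, −0.32 and −0.49, and the receptor *Notch1* at −0.29. The target *Hes1* ranged in the Brg1 LKO livers from 0.854 to 2.76 FPKM, and the cofactor *Maml1* (0.07) and the transcription factor *Rbpj* (0.25, the highest) were above 0. The median of the list was −0.082 without WT replicate 2 and −0.061 with a pseudocount of 1.

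Among 18 Hippo-YAP genes, 15 passed the filter, 0 were past the threshold and the median was 0.07. The coactivators *Yap1* and *Wwtr1* were at 0.03 and 0.18 and their DNA-binding partner *Tead3* at −0.06, and *Sav1*, a scaffold of the kinase arm, was at −0.15. The extremes were *Ajuba*, an adaptor that inhibits the kinase arm, at −0.70 and *Axl*, a receptor kinase target, at 0.80, with unadjusted p = 0.0659 and 0.0707 from limma. Of 14 keratin partner genes, which build desmosomes, link filaments or enter Mallory-Denk bodies, 10 passed the filter, 0 were past the threshold and the median was −0.06, or −0.38 without WT replicate 1. *Plec*, the linker plectin, was at 17.5 and 17.8 FPKM in WT liver against 23.4 and 24.0 FPKM in Brg1 LKO liver, without overlap (log2 fold change 0.42, adjusted p = 1.00 from limma). The aggregate protein gene *Sqstm1* was at −0.05, the crosslinking enzyme gene *Tgm2* at 0.47, the highest, and the heat shock gene *Hspb1* at −0.64, the lowest.

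The relatives of *Wfdc2* in the WAP family gave few values to compare. Of 12, 5 were listed at 0 in all livers and 4 passed the filter, 0 of them past the threshold. *Slpi*, a secreted protease inhibitor with the same kind of domain, was at 0.846 and 3.03 FPKM in WT liver against 1.27 and 0.362 FPKM in Brg1 LKO liver. The order of its livers was that of the mesothelial sum. Its log2 fold change was −1.11 (unadjusted p = 0.0654, adjusted p = 1.00 from limma), and with single livers left out it ranged from −1.98 to −0.25, past the threshold without either replicate 1 and not without either replicate 2. *Wfdc21* was the most abundant, at 139 and 117 FPKM against 86.4 and 117 FPKM, and *Wfdc17* was the highest in log2 fold change at 0.75.

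**Figure D4:**
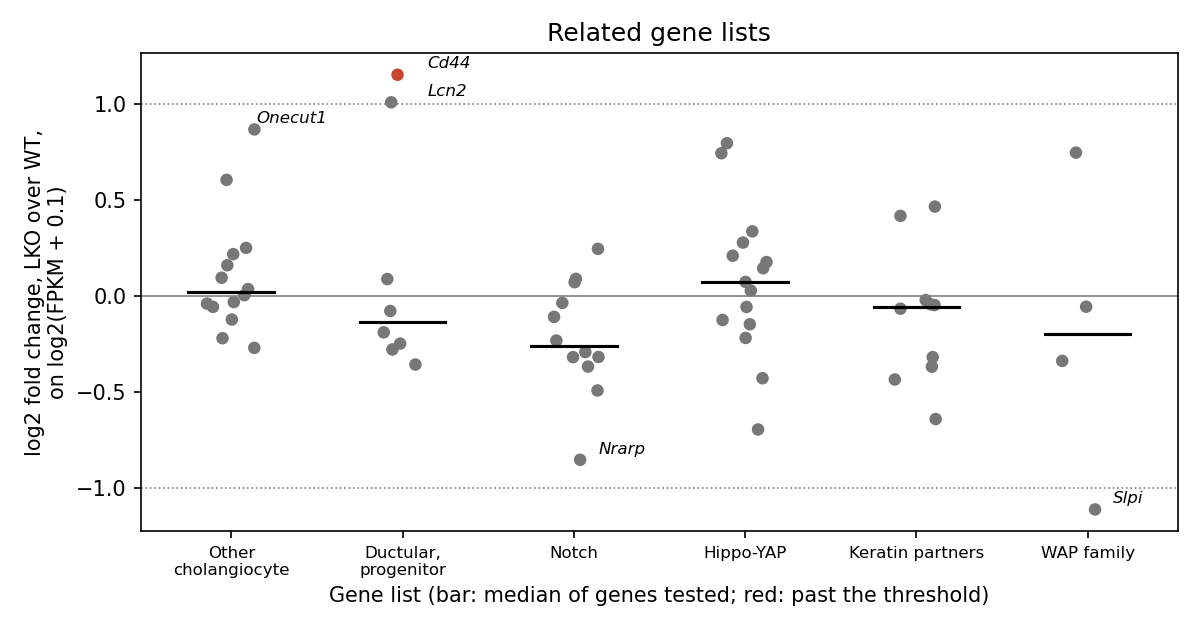
log2 fold change of Brg1 LKO over WT livers, on the log2(FPKM + 0.1) scale, for each gene of 6 related lists that passed the filter, with a bar at the median of a list and dotted lines at a 2-fold change. *Cd44* is the single gene past the threshold, and the Notch list has the lowest median, at −0.26.

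Markers of other cells were read beside these genes. The 10 hepatocyte markers had a median log2 fold change of 0.09, with *Alb* at 0.08 and *Tf*, listed as *Trf*, at 0.10, and 0 were past the threshold. Erythroid markers, whose cells also carry *Cd24a*, summed to 21.9 and 40.4 FPKM in WT liver against 181 and 26.8 FPKM in Brg1 LKO liver. *Hbb-bs* was past the threshold (log2 fold change 1.42, unadjusted p = 0.0497, adjusted p = 1.00 from limma), at 73.5 FPKM in LKO replicate 1 against 7.27 to 13.8 FPKM elsewhere, and it was −0.02 without that liver and 0.96 without WT replicate 1, not past the threshold in either case. *Hbb-bt*, next in level, was at 1.34. Of the 5 erythroid markers that passed the filter, 4 were above 0 and *Alas2* was below it, at −0.14. *Alas2* was at 5.03 and 7.43 FPKM in WT liver against 7.79 and 3.96 FPKM in Brg1 LKO liver, and its groups overlapped. *Cd24a* had its lowest level, 0.120 FPKM, in LKO replicate 1. Neutrophil markers summed to 11.5 and 4.37 FPKM in WT liver against 16.5 and 8.19 FPKM in Brg1 LKO liver, most of it *S100a9*. The log2 fold changes of *S100a9* and *S100a8* were 0.76 and 0.67, and the groups overlapped for both. Of the 4 neutrophil markers that passed the filter, 3 were above 0 and *Retnlg* was below it, at −0.21. Its groups overlapped too, and 0 of the 4 were past the threshold. B cell markers summed to at most 0.248 FPKM, with *Cd79b* and *Ms4a1* the highest and *Pax5* listed at 0. Of 10 pancreatic acinar markers, 4 were listed at 0 in all livers, and *Cela1*, at 1.17 to 2.29 FPKM, made up most of the sum with *Cela2a* next. The acinar sum put the livers in the same order as the mesothelial sum, but that order was the order of *Cela1*. In WT replicate 2, the liver with the most *Wfdc2*, *Cela1* was the only acinar marker above 0. *Cela2a* was highest in WT replicate 1, at 0.196 FPKM, and at 0 in WT replicate 2. The part of acinar RNA in the *Wfdc2* difference was not tested.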

How the data were processed

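Values for whole liver of 2 WT and 2 Brg1 LKO mice were taken as deposited. By the paper's methods the authors used Trimmomatic for trimming, HISAT2 for mapping and Cufflinks for the FPKM values, while the submitters' processing notes name HISAT2 2.0.4 and StringTie 2.1.4. The methods describe stranded Illumina libraries and the labels a BGIseq protocol. No scaling between libraries is stated. Because FPKM is relative to the library total, a few abundant genes can shift all others. The WT mice were littermates, but which mice shared a litter or day is not stated, and p-values measure the spread between these livers.

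Transcript lengths and positions came from GENCODE M21 (GRCm38) for 98.6% of 22103 entries. The FPKM of 1 read on transcripts of at least 2000 bases gave each library total, and 88.5% to 89.5% of values of up to 20 reads lay within 0.1 of a whole read. Whether a read is a single read or a pair is not known. Of 161 listed genes, 2 were matched under an older symbol and 2 (*Ahsp* and *H19*) had no entry under their symbol.

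The difference Brg1 LKO minus WT was fitted with limma 3.58.1 in R 4.3.3 (trended eBayes) for 12346 entries with a mean of at least 0.1, after adding a pseudocount of 0.1 and taking log2. A call needed p under 0.05 with a log2 difference beyond 1 or −1, and p-values were adjusted by Benjamini-Hochberg over all entries tested. Remaining steps used Python 3.11.15 and SciPy 1.17.1. The fit was also run on simulated data, with a single spread for all genes and changes planted only in the more abundant ones. No change was planted in genes as low as *Krt19*, *Prom1*, *Cd24a*, *Epcam* and *Krt7*, and the outcome is not given here. Genes named from a list are those past the threshold, and in pathway lists the 3 most abundant and the lowest and highest log2 fold change among those tested, and in cell marker lists the 2 most abundant. *Yap1*, *Jag1*, *Dll1*, *Dll4*, *Cftr*, *Sctr*, *Muc16*, *Pax5*, *Retnlg*, *Alas2*, *Lrrn4*, *Bnc1* and *Wt1* were named after their values were seen. The members and lists were chosen with earlier results of these data known. Alternatives were other pseudocounts, filters and scalings, an untrended prior, a replicate block, voom on estimated reads and each liver left out.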

Additional observations from a re-analysis of the deposited data

How the results depend on the processing

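The threshold was passed by 121 genes. A pseudocount of 1 left 18, no filter on low values 80, and a filter on means under 1 FPKM 68. With that filter 2 genes had an adjusted p under 0.05, neither of them in the group. The number ranged from 78 without WT replicate 2 over 231 without WT replicate 1 and 450 without LKO replicate 2 to 552 without LKO replicate 1. The WT mice were littermates, but the replicate numbers are not stated to mark a litter or day, and the deviations of same-numbered livers were hardly correlated across genes (r = 0.03). With the replicate block 108 genes passed. The median log2 fold change of the 8 genes tested was −0.10 with *Wfdc2*, which was picked for its fall, and −0.01 over the other 7. With *Wfdc2* it was 0.34 with the filter at 1 FPKM, where only *Krt8*, *Krt18* and *Wfdc2* were left, and between −0.23 and 0.088 when single livers were left out (the extremes without WT replicates 1 and 2). Without WT replicate 1 and without WT replicate 2 the median over all genes tested moved the same way, to −0.17 and 0.12. With single livers left out, log2 fold changes ranged from −0.45 to 0.090 for *Krt19* (positive without WT replicate 2), from −0.082 to 0.77 for *Krt18* (negative without LKO replicate 2), from −0.077 to 0.43 for *Epcam* (negative without LKO replicate 1), from −0.11 to 0.087 for *Cd24a* (positive without LKO replicate 1) and from −0.58 to 0.18 for *Prom1* (positive without WT replicate 2, 0.17, or LKO replicate 1). *Cd24a*, at −0.01, also turned to 0.0041 after median-ratio rescaling and to 0.028 after quantile normalization. *Krt8* stayed above 0 under every alternative run, from 0.20 to 0.58. *Wfdc2* and *Sox9* stayed below 0, from −2.41 to −1.14 and from −1.52 to −0.17. For *Krt8* and *Wfdc2* the groups did not overlap, so leaving out a single liver could not change the sign. *Wfdc2* was also picked for its fall, so its steady sign is no support for that fall. *Krt7* could be fitted only with no filter. The cause of these shifts was not tested, apart from the filters, which change how many genes are tested. Depth limits *Krt7*, *Epcam* and *Cd24a* most.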
